A study of Mus musculus with 5 samples.

Results

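Interferon response and MHC class I genes were followed in GFP-sorted lung cells, labelled as fibroblasts, that carry 1 or 2 floxed alleles of Igf1r, the gene of the type 1 insulin-like growth factor receptor. The set was a fixed list of 39 gene symbols, all of which were present among the 23478 genes of the count table, and they were matched by symbol alone. It held 5 cytosolic sensors of nucleic acid with their partners, 4 transcription factors, 12 antiviral effectors, 2 genes of the ISG15 system, 4 other interferon-induced effectors, 6 interferon-induced GTPases and 6 genes of MHC class I and its peptide supply. RNA was taken on P6 from GFP-sorted cells of dissociated mouse lungs. The 2 Control libraries came from mice labelled Igf1r Flox/Wildtype and the 3 Igf1r-deleted libraries from mice labelled Igf1r Flox/Flox. Both groups carried the tamoxifen-dependent Cre driver Gli1-CreERT2 and the Rosa26-eGFP reporter, and both received tamoxifen, 100 µg per injection, on P0 and P1. Controls can therefore lose 1 copy of Igf1r and Igf1r-deleted cells can lose both, and GFP marks cells in which Gli1-driven Cre was active, with their progeny. Mice were kept on a mixed background, both sexes were used, and the number of pups behind a library is not given in the sources used here.

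Interferons are secreted by cells that sense foreign nucleic acid or by activated lymphocytes. Type I interferons bind IFNAR1 with IFNAR2 and interferon gamma binds IFNGR1 with IFNGR2, and the attached JAK kinases phosphorylate transcription factors of the STAT family. The complex of type I interferon, which holds STAT2 and IRF9, binds the interferon-stimulated response element (ISRE), whereas interferon gamma acts through the gamma-activated sequence (GAS). The genes induced in this way restrict viruses and intracellular microbes and raise the display of peptides on MHC class I, a heavy chain paired with beta-2 microglobulin that CD8+ T cells read.

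Both elements were searched for in the promoters of the set. RefSeq promoters on GRCm38.p6, from 250 bases before to 50 bases after the start of a gene, were matched for 30 of the 39 genes. The ISRE core, GAAA followed by any 2 bases and GAAA, searched on both strands, was found in 16 of these 30 promoters (53.3%) and in 3.99% of the 27025 promoters of the table. The GAS core, TTC followed by any 3 bases and GAA, which reads alike on both strands, was found in 8 of 30 (26.7%) and in 9.55% of all promoters. In Bst2 a match to one core overlapped a match to the other. A match describes letters in this window and is no evidence of binding. Sequences before the start site are given for B2m, the member with the highest level, for the 3 Gbp genes to which the comparison of genotypes returns, and for the effectors Isg15, Ifit1 and Oas3, which were each below B2m in level. They are written on the strand of the gene, with 1 ISRE core in capitals. A core on the other strand reads TTTC, any 2 bases and TTTC. The stretches of Gbp3 and Isg15 hold further ISRE cores, which overlap the one in capitals and are not marked.
B2m, chr2:122147538-122147567, plus strand: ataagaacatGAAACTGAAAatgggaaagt
Gbp7, chr3:142530273-142530302, plus strand: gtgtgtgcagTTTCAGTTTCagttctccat
Gbp3, chr3:142559989-142560018, plus strand: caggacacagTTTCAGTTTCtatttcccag
Gbp2, chr3:142620594-142620623, plus strand: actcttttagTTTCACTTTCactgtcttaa
Isg15, chr4:156200871-156200900, minus strand: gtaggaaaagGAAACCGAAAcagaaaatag
Ifit1, chr19:34640794-34640823, plus strand: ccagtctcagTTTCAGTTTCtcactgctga
Oas3, chr5:120777715-120777744, minus strand: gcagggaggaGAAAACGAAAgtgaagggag
The GAS core is shown in capitals for Irf1, a transcription factor whose promoter held no ISRE core in this window.
Irf1, chr11:53769914-53769942, plus strand: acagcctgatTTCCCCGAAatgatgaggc
Genes with the same core were therefore found at high and at low levels, since B2m was the most abundant of the 39 genes per length and Oas3 was detected with 1 to 71 counts per library.

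Library totals ran from 35116766 to 37597857 counts, and 15298 genes had enough counts to be tested. Igf1r was at 324 CPM (counts per 1000000 of the scaled library total) in each Control library and at 140, 177 and 194 CPM in Igf1r-deleted 1, 2 and 3. The fitted log2 fold change was -0.93 with a standard error (SE) of 0.14, and the Benjamini-Hochberg adjusted p of the edgeR quasi-likelihood test was 0.354. The summed level of 10 fibroblast markers was 40215 to 54854 CPM over the libraries, against 237 to 661 CPM for 14 leukocyte markers, 297 to 841 CPM for 10 endothelial markers and 504 to 1115 CPM for 12 epithelial markers. Xist and the Y-linked genes put both Control libraries and Igf1r-deleted 2 with male cells and Igf1r-deleted 1 and 3 with female cells. Both female libraries are Igf1r-deleted, so sex and genotype cannot be fully told apart. A fit with a term for sex compares Igf1r-deleted 2 alone with the Controls. Within a genotype, pairs of libraries had a chi-square of 23.2 to 50.7 per degree of freedom, far above the 1 of pure counting error, so p-values measure the spread between these libraries, which are not stated to be single animals.

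The 39 genes covered more than 3 orders of magnitude in level. Of these, 3 had a mean of at least 100 CPM (B2m, Iigp1 and Irf1), 14 lay between 10 and 100 CPM, 14 between 1 and 10 CPM and 8 under 1 CPM. Levels of different genes were compared per kilobase of exon, with the exons of all annotated transcripts of a gene merged. A merged length can exceed that of the transcript in use, so levels per kb are approximate. B2m led with 265 CPM per kb over all libraries and took 57.2% to 59.4% of the summed level per kb of the 39 genes in every library. Iigp1 (30.1 CPM per kb) and Irf1 (29.4) followed, then H2-K1 (18.3), H2-D1 (18.2), Ifit2 (16.3) and Trim25 (11.2). Iigp1 and Irf1 exchanged places between the genotypes, with Iigp1 at 27.8 and Irf1 at 33.6 CPM per kb in the Control mean and at 31.7 and 26.5 in the Igf1r-deleted mean, so their order is not resolved. H2-K1 and H2-D1 lay within 0.3 CPM per kb of each other in both group means and were not separated either. Mx1, an antiviral GTPase, was the lowest at 0.0404 CPM per kb, with 2 to 8 counts per library, and was the only one of the 39 genes that did not pass the filter for testing. The plot of levels by library shows these ranges.

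**Figure D1:**
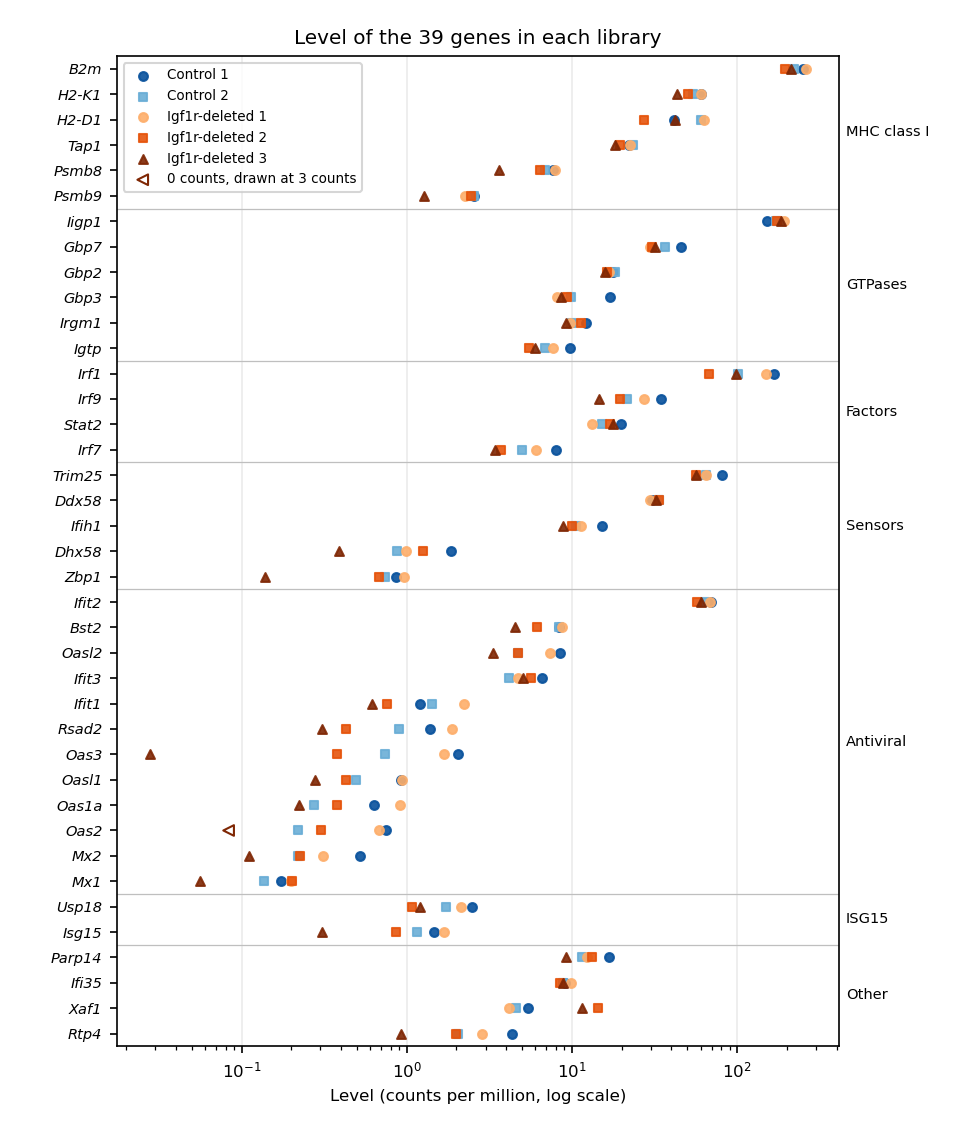
Level of each of the 39 genes in each library, in CPM on a log scale, grouped by role; blue symbols are the 2 Control libraries and orange to brown symbols the 3 Igf1r-deleted libraries, and the open triangle is a count of 0 drawn at 3 counts. The points of both genotypes lie close together for abundant genes such as B2m and Iigp1 and spread apart for genes under 1 CPM, where Igf1r-deleted 3 is often the lowest.

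Between the genotypes, 34 of the 38 tested genes were lower in the Igf1r-deleted libraries and 4 were higher (Iigp1, Xaf1, Oas1a and Ifi35), but no single gene passed the adjusted test. The share with a negative log2 fold change was 89.5% of the set and 47.7% of all genes tested. The median log2 fold change of the set was -0.35, against 0.01 over all genes tested. In bulk RNA, fewer cells of a type and less RNA per cell cannot be told apart. Adjusted p-values of the edgeR quasi-likelihood test ran from 0.354 to 0.981, and no gene of the table passed 0.05 (0%), although 1897 of the 15298 genes tested had an unadjusted p under 0.05. DESeq2's Wald test called 199 genes of the table at an adjusted p under 0.05, of which 143 were lower and 56 higher, and none belonged to the set, although that test gave no adjusted p for 11 of its genes. At an unadjusted p under 0.05, edgeR's test called 2 genes of the set, Gbp7 and Gbp3, both lower. These are 5.26% of the 38 genes, where 12.4% of all genes tested were called (6.75% lower and 5.65% higher), so the share of single calls was below the background. The genotypes did not overlap for 5 of the 38 genes (13.2%, where the background was 31.0%). Of these, 4 were lower (Gbp2, Gbp3, Gbp7 and Psmb9, where 14.9% of all genes were) and Iigp1 was higher (where 16.0% were). With 2 libraries against 3 no exact permutation p can fall below 0.1.

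The precision differed with level. The 17 genes at 10 CPM or more had a median standard error of 0.15 and a median log2 fold change of -0.18. For the 21 genes under 10 CPM the medians were 0.51 and -0.38. The median of the 38 genes rested on single libraries, and its value was -0.08 without Control 1, where 25 genes were lower, and -0.13 without Igf1r-deleted 3. Without Igf1r-deleted 1 it was -0.54, and with the replicate number as a block it was -0.12, where 31 genes were lower. At an unadjusted p under 0.05, edgeR's test called 10 of 37 genes without Igf1r-deleted 1 and 1 of 38 without Igf1r-deleted 3. The count over all genes moved as well, with 3183 of 15138 genes called without Igf1r-deleted 1 and 1113 of 15153 without Igf1r-deleted 3. Without Igf1r-deleted 1 the lower genes were Bst2, Gbp7, H2-K1, Irf1, Irf7, Irf9, Oas3, Rsad2 and Trim25, and Xaf1 was higher. A term for sex leaves Igf1r-deleted 2 alone to compare with the Controls. It gave log2 fold changes of -0.89 for H2-D1 and -0.98 for Irf1, and Xaf1 stayed higher. With DESeq2's Wald test, Trim25 and Xaf1 joined Gbp3 and Gbp7 at an unadjusted p under 0.05.

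**Figure D2:**
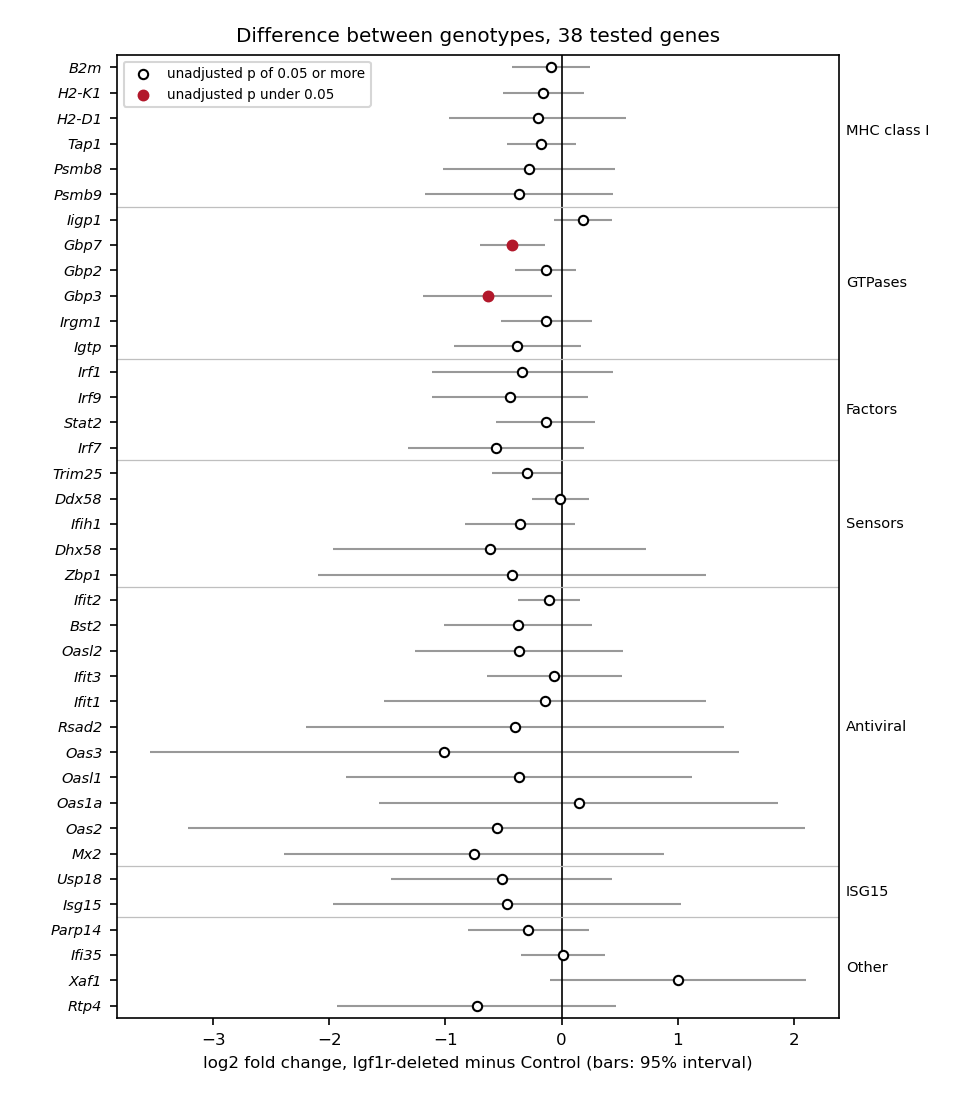
Log2 fold change of the 38 tested genes, Igf1r-deleted minus Control, by role; points are the fitted values, bars their 95% intervals, and filled points have an unadjusted p under 0.05 in edgeR's quasi-likelihood test. Of the 38 points 34 lie left of 0, and Gbp7 and Gbp3 have intervals that leave out 0.

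Sensors stood at the start of the pathway. All 5 were lower in the Igf1r-deleted libraries, none at an unadjusted p under 0.05 in edgeR's test, and their median log2 fold change was -0.36. Trim25, a ubiquitin ligase that acts with RIG-I, was the most abundant of them in CPM, at 80.5 and 65.0 CPM in Control 1 and 2 and at 65.1, 56.5 and 56.0 CPM in Igf1r-deleted 1, 2 and 3. Igf1r-deleted 1 reached the level of Control 2, so the genotypes just overlapped. The log2 fold change of Trim25 was -0.30 (SE 0.13, edgeR quasi-likelihood unadjusted p = 0.0522, adjusted p = 0.402), and it lay between -0.45 and -0.14 when single libraries were left out. Ifih1, which encodes the double-stranded RNA sensor MDA5, was at 15.2 and 10.6 CPM in Control libraries against 11.4, 9.98 and 8.82 CPM in Igf1r-deleted libraries, with Control 1 apart from the other 4. Ddx58, which encodes RIG-I, was nearly level in the 5 libraries, between 29.8 and 33.5 CPM, and its sign depended on the scaling (-0.01 with TMM and 0.06 with library totals). Dhx58, which encodes the RIG-I-like regulator LGP2, ran from 0.390 CPM in Igf1r-deleted 3 to 1.84 CPM in Control 1. Zbp1, a sensor of Z-form nucleic acid, ran from 0.139 CPM in Igf1r-deleted 3 to 0.963 CPM in Igf1r-deleted 1. For both of these low genes the spread among the Igf1r-deleted libraries was wider than the difference between the group means.

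The 4 transcription factors were lower in the Igf1r-deleted mean, with a median log2 fold change of -0.39, and each of them overlapped between the genotypes. Irf1, which drives class I and GTPase genes after interferon gamma, was at 166 and 101 CPM in Control libraries against 150, 67.7 and 99.1 CPM in Igf1r-deleted libraries. Control 1 and Igf1r-deleted 1 were high and the other 3 were low, so the libraries did not divide by genotype. Its log2 fold change was -0.34 (SE 0.33, edgeR quasi-likelihood adjusted p = 0.688), and without Control 1 it was 0.06. It was -0.69 without Igf1r-deleted 1 and -0.98 with a term for sex, and its unadjusted p was under 0.05 in both of these fits and with the replicate block. Irf9, the DNA-binding subunit of the ISRE complex, was at 34.4 and 21.5 CPM in Control libraries against 27.4, 19.6 and 14.6 CPM in Igf1r-deleted libraries. Irf7, which amplifies type I interferon production, was at 8.01 and 4.99 CPM against 6.04, 3.72 and 3.42 CPM. Both had Control 1 highest, Igf1r-deleted 1 second and Igf1r-deleted 3 lowest. Stat2 had another order, with 19.9 and 15.2 CPM in Control libraries against 13.2, 17.1 and 17.6 CPM in Igf1r-deleted libraries, where Igf1r-deleted 1 was the lowest of the 5.

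Antiviral effectors were mostly rare in these cells. Of 11 tested genes 10 were lower and Oas1a was higher, with a median log2 fold change of -0.37, and none had an unadjusted p under 0.05 in edgeR's test. Ifit2, which binds viral RNA, was by far the most abundant, at 69.2 and 64.1 CPM in Control libraries against 69.0, 56.9 and 60.1 CPM in Igf1r-deleted libraries. Its genotypes overlapped, and the log2 fold change was -0.11 (SE 0.11, edgeR quasi-likelihood adjusted p = 0.719). The related Ifit1 was at 1.21 and 1.42 CPM in Control libraries against 2.21, 0.754 and 0.612 CPM in Igf1r-deleted libraries, so the highest and the lowest level were both in Igf1r-deleted libraries. Ifit3 was between 4.17 and 6.57 CPM, with Control libraries at both ends. It shares 51.2% of its 50-base words with Ifit3b, so its reads cannot be assigned with certainty.

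Oas genes make short oligoadenylates that activate RNase L. Oas3 had the largest negative log2 fold change of the set, at 2.04 and 0.737 CPM in Control libraries against 1.67, 0.377 and 0.0278 CPM in Igf1r-deleted libraries. The last value is 1 count, against 59 counts in Igf1r-deleted 1, so the Igf1r-deleted libraries differed more among themselves than the genotypes did. Its log2 fold change was -1.01 with an SE of 1.08 (edgeR quasi-likelihood adjusted p = 0.714). It was -0.10 without Control 1 and -2.73 without Igf1r-deleted 1, where the unadjusted p was under 0.05. Oas2 had 26 and 8 counts in Control libraries against 24, 12 and 0 counts in Igf1r-deleted libraries. A count of 0 allows up to 3 counts, or 0.0835 CPM, in Igf1r-deleted 3. Oas1a had 8 to 32 counts and shares 57.6% of its 50-base words with other Oas1 genes. Oasl1 ran from 10 to 33 counts and Oasl2, the more abundant relative, from 3.31 to 8.50 CPM. In all 5 of these genes Igf1r-deleted 3 was the lowest library.

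Mx2, a relative of Mx1, had 18 and 8 counts in Control libraries against 11, 9 and 4 counts in Igf1r-deleted libraries, which are 0.518 and 0.218 CPM against 0.312, 0.226 and 0.111 CPM. Control 1 stood above the other 4 libraries, which overlapped. The log2 fold change of Mx2 was -0.75 (SE 0.70, edgeR quasi-likelihood adjusted p = 0.668), and it was -0.02 without Control 1 and -1.26 without Control 2. Rsad2, which encodes the antiviral enzyme viperin, was at 1.38 and 0.900 CPM in Control libraries against 1.87, 0.427 and 0.306 CPM in Igf1r-deleted libraries. Bst2, which encodes the virion tether tetherin, was at 8.29 and 8.38 CPM in Control libraries against 8.67, 6.11 and 4.51 CPM in Igf1r-deleted libraries. For both genes Igf1r-deleted 1 was the highest library of the 5, and Igf1r-deleted 2 and 3 were the lowest.

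The ISG15 system attaches a ubiquitin-like protein to target proteins. Isg15 itself was at 1.47 and 1.15 CPM in Control libraries against 1.67, 0.855 and 0.306 CPM in Igf1r-deleted libraries. Usp18, which removes ISG15 and restrains IFNAR2, was at 2.48 and 1.72 CPM in Control libraries against 2.13, 1.08 and 1.2 CPM in Igf1r-deleted libraries, with a log2 fold change of -0.52 (SE 0.40, edgeR quasi-likelihood adjusted p = 0.612). Both had Igf1r-deleted 1 above Control 2 and Igf1r-deleted 2 and 3 below both Controls.

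Among the other effectors, 2 were lower and 2 were higher. Xaf1, a pro-apoptotic partner of XIAP, had the largest positive log2 fold change of the set. Its level was 5.39 and 4.58 CPM in Control libraries against 4.17, 14.3 and 11.4 CPM in Igf1r-deleted libraries. Igf1r-deleted 2 and 3 were above both Controls, and Igf1r-deleted 1 was below them. Fitted together, the log2 fold change was 1.0 (SE 0.47, edgeR quasi-likelihood unadjusted p = 0.0683, adjusted p = 0.422), and it kept its sign in all alternatives, between 0.64 and 1.52. Parp14, an ADP-ribosyltransferase, was at 16.8 and 11.5 CPM in Control libraries against 12.4, 13.2 and 9.24 CPM in Igf1r-deleted libraries. Apart from Control 1 its libraries overlapped, and the log2 fold change was -0.28 (SE 0.22, edgeR quasi-likelihood adjusted p = 0.609). Rtp4, a receptor chaperone, ran from 0.918 CPM in Igf1r-deleted 3 to 4.35 CPM in Control 1. Ifi35, a leucine zipper protein, was between 8.45 and 9.89 CPM in the 5 libraries, and 16.8% of its exon length lies under Gm11626 on the other strand.

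Interferon-induced GTPases surround and break open the vacuoles of intracellular microbes. They held both genes of the set with an unadjusted p under 0.05 in edgeR's test and 4 of the 5 genes whose genotypes did not overlap. These are 33.3% and 66.7% of the 6 GTPases, where the background was 12.4% and 31.0%. The whole set was below both background shares, at 5.26% and 13.2%, and the GTPases were not tested as a group. Gbp7, a guanylate-binding protein, was at 45.8 and 36.6 CPM in the Controls (mean 41.2 ± 6.49, SD, n = 2) and at 29.8, 30.7 and 31.7 CPM in Igf1r-deleted libraries (mean 30.7 ± 0.947, SD, n = 3). The 3 Igf1r-deleted libraries lay within 2 CPM of each other and below both Controls. Fitted over all libraries, the log2 fold change of Gbp7 was -0.42 (SE 0.12, 95% interval -0.70 to -0.14, edgeR quasi-likelihood unadjusted p = 0.00870, adjusted p = 0.354). Its unadjusted p stayed under 0.05 in edgeR, DESeq2 and limma voom fits, under each scaling and filter, with the replicate block and without each library except Control 1. Without Control 1 the log2 fold change was -0.26 and the unadjusted p was above 0.05, as it was with a term for sex.

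Gbp3 was at 17.1 and 9.82 CPM in the Controls (mean 13.5 ± 5.13, SD, n = 2) and at 8.10, 9.30 and 8.54 CPM in Igf1r-deleted libraries (mean 8.65 ± 0.607, SD, n = 3). Control 2 was only just above Igf1r-deleted 2, and the separation came mainly from Control 1. For Gbp3 the log2 fold change was -0.64 (SE 0.24, edgeR quasi-likelihood unadjusted p = 0.0300, adjusted p = 0.372), and it was -0.19 without Control 1 and -0.99 without Control 2. Its unadjusted p was above 0.05 with library totals, limma voom or a term for sex, and without Control 1, Igf1r-deleted 1 or Igf1r-deleted 3. Gbp2 was at 17.8 and 18.2 CPM in Control libraries against 16.7, 16.4 and 15.9 CPM in Igf1r-deleted libraries. The difference was small, with a log2 fold change of -0.14 (SE 0.11), although the genotypes did not overlap.

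These 3 genes are neighbours on chromosome 3 of mm10, where Gbp5, Gbp7, Gbp3, Gbp2b and Gbp2 follow each other on the plus strand between 142493978 and 142638008. This arrangement was looked up after the values were seen. Gbp7 spans 142530342 to 142550149, Gbp3 142560026 to 142573209 and Gbp2 142620602 to 142638008, and the ISRE cores shown above lie in front of the Gbp7 and Gbp3 spans and just inside that of Gbp2. Gbp5 was at 2.94 and 1.34 CPM in Control libraries against 2.18, 1.31 and 1.86 CPM in Igf1r-deleted libraries, so it overlapped. Gbp7 shares 12.7% of its 50-base words with other genes, among them Gbp3 and Gm43802, and Gm43802 overlaps 11.3% of its exon length on the same strand. Shared words were fewer in Gbp3 (3.75%) and in Gbp2 (2.03%).

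Iigp1, an immunity-related GTPase, had the highest CPM of the group and the opposite direction. It was at 151 and 173 CPM in the Controls (mean 162 ± 15.5, SD, n = 2) and at 193, 175 and 186 CPM in Igf1r-deleted libraries (mean 185 ± 9.37, SD, n = 3). The genotypes did not overlap, but Control 2 and Igf1r-deleted 2 were within 2 CPM of each other. For Iigp1 the log2 fold change was 0.19 (SE 0.11, edgeR quasi-likelihood adjusted p = 0.485) and it lay between 0.09 and 0.28 over the alternatives. Igtp was at 9.76 and 6.85 CPM in Control libraries against 7.65, 5.48 and 6.01 CPM in Igf1r-deleted libraries, and Irgm1 ran from 9.27 CPM in Igf1r-deleted 3 to 12.2 CPM in Control 1. Both of these immunity-related GTPases overlapped between the genotypes. The summed level of the 6 GTPases, which Iigp1 dominated, was 254 CPM in each Control and 248 to 265 CPM in Igf1r-deleted libraries. The plot of 8 selected genes sets Gbp7, Gbp3, Gbp2 and Iigp1 beside Ifngr1 and Ifnar2, whose genotypes do not overlap either. Its last panels show Irf1 and Xaf1, which overlap.

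**Figure D3:**
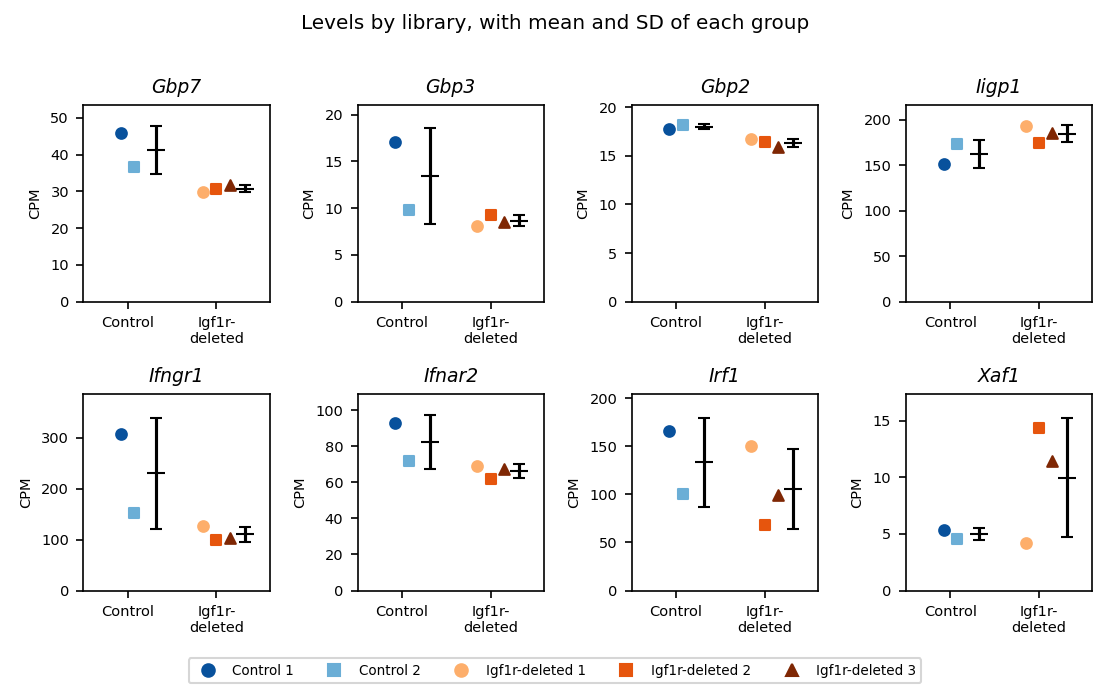
Level in CPM of 4 GTPase genes (Gbp7, Gbp3, Gbp2, Iigp1), of the receptor genes Ifngr1 and Ifnar2, and of Irf1 and Xaf1; coloured symbols are single libraries and black bars the mean and SD of 2 Control and 3 Igf1r-deleted libraries, on axes that start at 0. The groups do not overlap in the first 6 panels and overlap for Irf1 and Xaf1, where libraries of one genotype lie far apart.

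MHC class I genes included the most abundant gene of the set. All 6 were lower in the Igf1r-deleted mean, none at an unadjusted p under 0.05 in edgeR's test, with a median log2 fold change of -0.19. B2m, the shared light chain, was at 252 and 222 CPM in the Controls (mean 237 ± 21.1, SD, n = 2) and at 260, 195 and 212 CPM in Igf1r-deleted libraries (mean 222 ± 33.7, SD, n = 3). Igf1r-deleted 1 was above both Controls, and Igf1r-deleted 2 and 3 were below both. Its log2 fold change was -0.09 (SE 0.14, 95% interval -0.43 to 0.24, edgeR quasi-likelihood adjusted p = 0.806).

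The heavy chain H2-K1 was at 60.4 and 54.1 CPM in Control libraries against 60.4, 50.1 and 43.5 CPM in Igf1r-deleted libraries. H2-D1, the other heavy chain, was at 41.3 and 60.8 CPM in Control libraries against 63.3, 27.5 and 42.2 CPM in Igf1r-deleted libraries. H2-D1 was low in Control 1, where most genes of the set were high, and its log2 fold change of -0.20 (SE 0.33) was 0.09 without Control 2 and 0.04 without Igf1r-deleted 2. With a term for sex, which compares Igf1r-deleted 2 alone with the Controls, it was -0.89. H2-D1 shares 12.8% and H2-K1 9.63% of their 50-base words with other class I genes, and both are polymorphic, so, on a mixed background, their split is uncertain.

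Peptides reach class I through the immunoproteasome and the TAP transporter. Tap1 was at 22 and 23.3 CPM in Control libraries against 22.5, 19.4 and 18.3 CPM in Igf1r-deleted libraries. Psmb8 was at 7.72 and 6.82 CPM against 7.91, 6.44 and 3.62 CPM. Psmb9 was at 2.56 CPM in both Control libraries against 2.24, 2.44 and 1.28 CPM, and its genotypes did not overlap. In both proteasome subunits Igf1r-deleted 3 was lowest by a wide margin, whereas the other libraries were within 1.5 CPM of each other. Psmb9 overlaps Tap1 on the other strand, and 14.7% of the exon length of Psmb8 lies under Gm20496 on the other strand. The subunits they replace in the standard proteasome were more abundant per length. Psmb5, the counterpart of Psmb8, was at 22.2 and 22.6 CPM per kb in the Control and Igf1r-deleted means, against 2.15 and 1.77 CPM per kb for Psmb8. Psmb6, the counterpart of Psmb9, was at 9.95 and 10.3 CPM per kb, against 0.701 and 0.543 CPM per kb for Psmb9. Part of this gap comes from the merged exon lengths, which were 0.899 kb in Psmb5 and 3.38 kb in Psmb8. In CPM, Psmb5 was at 19.9 and 20.3 against 7.27 and 5.99 for Psmb8. Psmb6 was at 18.6 and 19.3 CPM against 2.56 and 1.99 CPM for Psmb9. The log2 fold changes of Psmb5, Psmb6 and the third standard subunit Psmb7 were 0.03, 0.05 and -0.09.

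Many genes of the set shared an order of libraries that did not divide cleanly by genotype. With so few libraries this order and the genotype cannot be fully told apart. Control 1 was the highest library for 21 of the 38 genes (55.3%, where 26.4% of all genes tested had it highest), and it exceeded Control 2 for 30 of them (78.9% against 50.3%). Within the Igf1r-deleted group, Igf1r-deleted 1 was the highest for 28 genes (73.7% against 37.8%). Igf1r-deleted 3 was the lowest library of the 5 for 24 genes (63.2% against 20.4%). The summed level of the 39 genes was 1137 and 992 CPM in Control libraries against 1118, 875 and 916 CPM in Igf1r-deleted libraries, so Igf1r-deleted 1 lay between the Controls.

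Leukocyte markers had much the same order. All 14 tested markers were lower in the Igf1r-deleted mean, where 47.7% of all genes tested were, and their median log2 fold change was -0.70. Of the markers 3 had an unadjusted p under 0.05 in edgeR's test (Cd68, C1qb and Laptm5). These are 21.4%, where 12.4% of all genes tested were called. Their summed level was 661 and 462 CPM in Control libraries against 535, 379 and 237 CPM in Igf1r-deleted libraries. Control 1 was highest for 11 of the 14 and Igf1r-deleted 3 lowest for 11. Ptprc, which encodes the pan-leukocyte antigen CD45, was at 31.1 and 25.5 CPM in Control libraries against 28.7, 12.5 and 12.2 CPM in Igf1r-deleted libraries. No marker of the list was at 0 in any library. A lower mean was not particular to leukocyte markers. It was seen for 9 of 10 fibroblast, 10 of 12 epithelial, 4 of 5 mesothelial and 6 of 10 endothelial markers. For myofibroblast markers it was 3 of 10 and for pericyte markers 2 of 7. The median log2 fold change was -0.19 for fibroblast, -0.34 for epithelial, -0.28 for mesothelial and -0.17 for endothelial markers. It was 0.35 for myofibroblast and 0.02 for pericyte markers, so the drop was largest for leukocyte markers among these lists. Igf1r-deleted 3 also had the lowest sum of epithelial (504 CPM), endothelial (297 CPM) and pericyte markers (520 CPM), but the highest of mesothelial markers (441 CPM). The 6 MHC class II genes were all lower as well. Their summed level was 132 and 154 CPM in Control libraries against 92.7, 136 and 76.7 CPM in Igf1r-deleted libraries. This order differed from that of the leukocyte markers, with Control 2 the highest and Igf1r-deleted 2 above Igf1r-deleted 1. The part of the leukocyte and class II genes in the difference of the interferon and class I genes was not tested. The heat map of deviations sets the genes of the set and the leukocyte markers side by side.

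**Figure D4:**
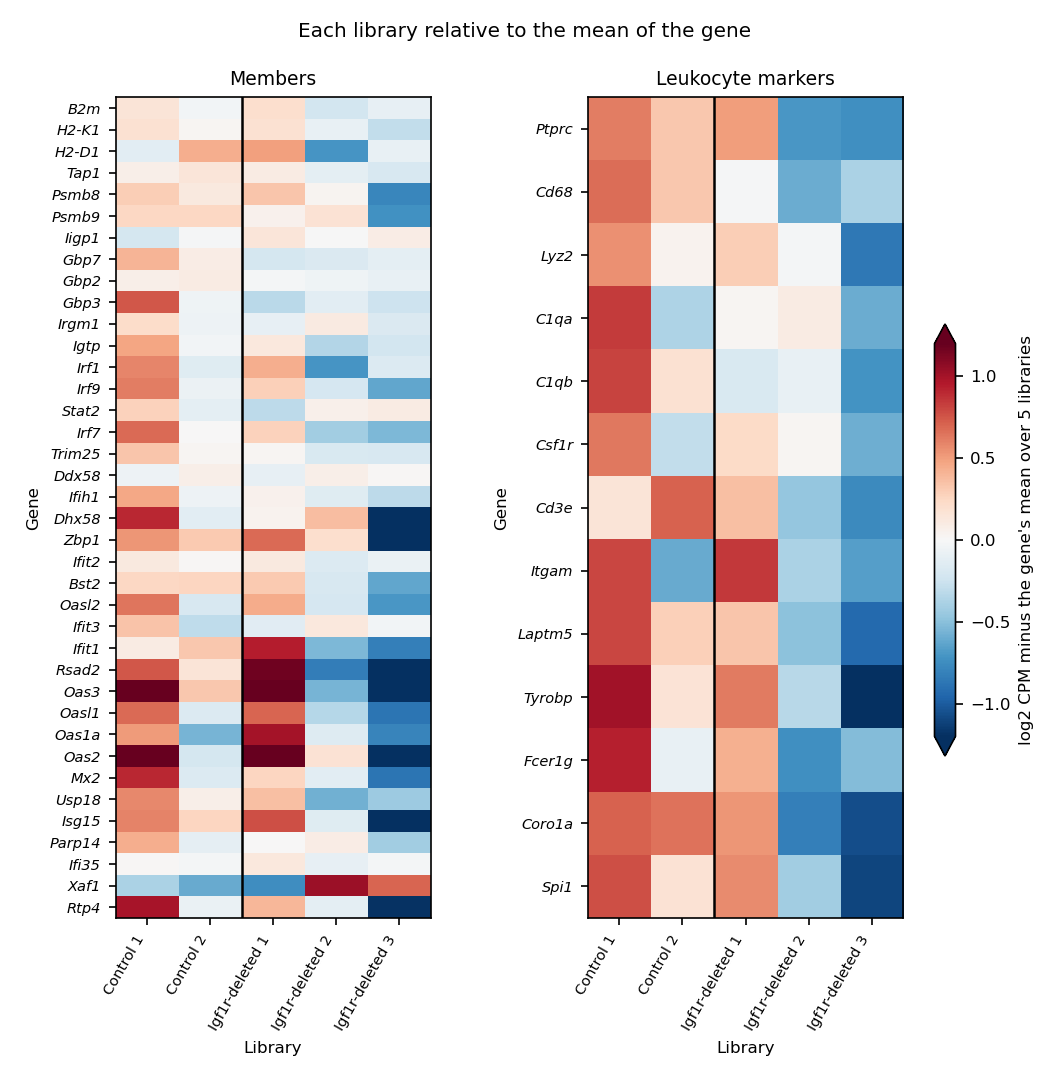
Deviation of each library from the mean of the gene over 5 libraries, in log2 CPM, for the 38 tested genes (left) and all but 1 of the 14 tested leukocyte markers (right); red is above and blue below the mean, colours saturate beyond the ends of the scale, and the black line parts Control from Igf1r-deleted libraries. The columns of Control 1 and Igf1r-deleted 1 are mostly red and that of Igf1r-deleted 3 is mostly blue in both panels, whereas Xaf1 has the reverse order.

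The rest of the pathway was read from a list of 112 genes, of which 110 were in the table and 94 were tested. Of these 94 genes 59 were lower and 35 higher, with a median log2 fold change of -0.10. At an unadjusted p under 0.05 edgeR's test called 11 lower and 3 higher genes, which is 14.9% where the background was 12.4%, and none passed the adjusted test. The Wald test of DESeq2 called Ifngr1 and Socs3, which are 2 of these 94, at an adjusted p under 0.05. The genotypes did not overlap for 23 genes (24.5%, where the background was 31.0%).

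Interferons themselves were almost undetected. Ifnb1, which encodes interferon beta, had 0 counts in all 5 libraries, which allows up to 3 counts per library, and Ifng, which encodes interferon gamma, had 0 to 16 counts. Of 15 ligands, the cytokines Il15, Cxcl9 and Cxcl10 alone had enough counts to be tested. Of the receptor chains, Ifnlr1, which binds interferon lambda, was low at 0.682 to 0.963 CPM. Ifngr1, the ligand-binding chain of the interferon gamma receptor, was at 306 and 153 CPM in Control libraries against 127, 99.7 and 104 CPM in Igf1r-deleted libraries. All 3 Igf1r-deleted libraries were below both Controls, but Control 1 was far above Control 2. Ifngr1 had a log2 fold change of -1.06 (SE 0.27, edgeR quasi-likelihood adjusted p = 0.354, DESeq2 Wald adjusted p = 0.0152, edgeR adjusted p with the replicate block = 0.0386). The block treats libraries of the same number as pairs, which the labels do not state, and Igf1r-deleted 3 has no partner in it. Without Control 1 the log2 fold change of Ifngr1 was -0.48. Ifnar2, a chain of the type I receptor, was at 93.0 and 72.0 CPM against 69.2, 61.7 and 67.5 CPM, with a log2 fold change of -0.32 (SE 0.13, edgeR quasi-likelihood adjusted p = 0.398), which was -0.13 without Control 1.

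Ifnar1, Ifngr2 and the kinases were nearly level. Ifnar1 was at 200 and 206 CPM in Control libraries against 210, 203 and 203 CPM in Igf1r-deleted libraries, and Ifngr2 was at 73.1 and 70.6 CPM against 67.8, 67.5 and 65.0 CPM. The log2 fold changes of the kinases Jak1, Jak2 and Tyk2 were -0.03, -0.11 and 0.09, and the sign of Jak1 turned with library totals and that of Tyk2 with the replicate block. Nlrc5, the transactivator of class I genes, was under 1.1 CPM in every library, and its log2 fold change was -0.18 (SE 0.59).

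Of the inhibitors, Socs3, which blocks JAK kinases below cytokine receptors, was at 1647 and 1194 CPM in Control libraries against 882, 802 and 836 CPM in Igf1r-deleted libraries. The genotypes were well apart, with a log2 fold change of -0.76 (SE 0.15, edgeR quasi-likelihood adjusted p = 0.354, DESeq2 Wald adjusted p = 0.00103). Usp15, a deubiquitinase, was higher in the Igf1r-deleted mean (log2 fold change 0.33). So were Rfx5, which binds MHC promoters (0.46), and Cmpk2, a mitochondrial nucleotide kinase beside Rsad2 (0.41). For all 3 genes each Igf1r-deleted library was above both Controls. On the lower side were the lipopolysaccharide receptor Tlr4 (-0.46), Dtx3l, a ubiquitin ligase (-0.50), the immunity-related GTPase Irgm2 (-0.84) and Ifitm1, a membrane protein that hinders virus entry (-1.21). Ifitm1 was at 140 CPM in Control 1 and between 31.0 and 55.4 CPM in the other 4 libraries, and without Control 1 its log2 fold change was -0.18.

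Of 14 tested genes in the class I list beyond the set, 4 (28.6%) were lower at an unadjusted p under 0.05 in edgeR's test. Of all genes tested, 6.75% were. Tap2, the partner of Tap1, was at 49.4 and 48.0 CPM in Control libraries against 41.3, 41.7 and 42.1 CPM in Igf1r-deleted libraries, with tight groups and a log2 fold change of -0.22 (SE 0.09, edgeR quasi-likelihood adjusted p = 0.394). Tapbpl, which edits class I peptides, had a log2 fold change of -0.35, and the non-classical class I genes H2-T23 and H2-M3 had -0.91 and -1.08. H2-T23 was at 43.1 CPM in Control 1 and between 12.7 and 21.8 CPM in the other libraries, which overlapped, and without Control 1 its log2 fold change was -0.32 and that of H2-M3 -0.63. Tapbp, which encodes the loading chaperone tapasin, was at 148 and 137 CPM against 138, 116 and 121 CPM, with a log2 fold change of -0.19 (SE 0.11).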

How the data were processed

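RNA-Seq of 5 libraries was analysed, 2 Control and 3 Igf1r-deleted, grouped by their labels. Per the labels and the methods of the study, the authors ran Trim Galore, Bowtie2 against mm10 and the GenomicAlignments package, in this order. The whole-number counts that the authors deposited for every gene carry no normalization and were used as they are. Tool versions, alignment settings, the annotation and the use of strand are not given in the sources used here, so reads of overlapping or near-identical genes may be misassigned.

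The model was fitted in R 4.3.3 by edgeR 4.0.16, which calls limma 3.58.1, after TMM scaling and a filterByExpr step by group. Genotype was its one term, the quasi-likelihood F test was two-sided, and p-values were adjusted by Benjamini-Hochberg over 15298 genes. CPM used TMM-scaled library sizes. TMM factors were 0.961 to 1.06. A count of 0 allows up to 3 counts per library, and this limit covers counting error only. The tests were tried on simulated counts for this comparison over 15094 genes, of which 195 were changed. At an adjusted p under 0.05 edgeR called 143 changed and 20 unchanged genes. DESeq2 called 155 changed and 45 unchanged genes, so its calls held more false ones than those of edgeR. The adjusted calls of DESeq2 given above carry this limit.

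The genes and lists were chosen with earlier results of these data known. Full statistics are given for genes of the set with an unadjusted p under 0.05, the gene with the highest mean CPM in each role, and the 3 largest absolute log2 fold changes. Of other genes, a fixed list of receptors, kinases, factors, class I and proteasome genes is named, with any pathway gene at an unadjusted p under 0.05. A pathway factor and a leukocyte marker, both kept in the counts and sums, are not reported here by name. Gbp5, the ligands and the leukocyte markers given by name were picked after their values were seen. Alternatives were DESeq2 1.42.0, limma voom, DESeq2's size factors, library totals, a filter of at least 1 count in any library or 10 in every library, leaving out each library, a replicate block and, chosen after seeing the data, a term for sex. DESeq2 gave no adjusted p for 2970 genes, 11 of them in the set. Positions, exon lengths and shared 50-base words came from GENCODE M21 on mm10, and promoters from RefSeq on GRCm38.p6.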

Additional observations from a re-analysis of the deposited data

How the results depend on the processing

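None of the 488 log2 fold changes of the set under an alternative passed an adjusted p of 0.05, and 32 had the other sign. Over all genes, DESeq2's Wald test gave 199 genes at an adjusted p under 0.05 and leaving out 1 library 0 to 45, and at an unadjusted p under 0.05 leaving out 1 library gave 433 to 3183. Genes of the set at an unadjusted p under 0.05 numbered 4 with DESeq2, 1 with limma voom, 4 with at least 1 count in any library and 0 to 10 with a library left out. Of the pathway genes, 2 passed the adjusted test with DESeq2 and 0 to 1 with a library left out. At an unadjusted p under 0.05, there were 7 pathway genes with a term for sex and 3 to 30 with a library left out. In CPM not divided by length, B2m took 22.6% of the summed level.

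Replicate numbers are shared by 2 pairs of libraries, whose deviations correlated at 0.208 and 0.121. Control 2 with Igf1r-deleted 3, which differ in number, gave 0.119. The deviations of 2 Controls from their mean mirror each other, so these correlations cannot decide whether the numbers are pairs. The labels name no shared litter, and the numbers were not taken as pairs. With the replicate block, 136 genes of the table and 1 pathway gene passed an adjusted p of 0.05, and the log2 fold changes of Zbp1 (0.022), Ifit1 (0.0098), Oas2 (0.12) and Tyk2 (-0.0030) had the other sign.

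With library totals the log2 fold changes of Ddx58 (0.064), Ifit3 (0.015) and Jak1 (0.044) had the other sign. With the sex term, so had those of Ddx58 (0.062), Ifit3 (0.070), Oas1a (-0.26), Ifi35 (-0.091) and Irgm1 (0.027). Leaving out 1 library at a time, the log2 fold change had both signs for Ddx58 (-0.082 to 0.048), Dhx58 (-1.07 to 0.011), Zbp1 (-0.95 to 0.032), Irf1 (-0.69 to 0.063), Stat2 (-0.33 to 0.066), Ifit1 (-0.94 to 0.16), Ifit3 (-0.36 to 0.29), Oas1a (-0.58 to 0.86), Oas2 (-1.61 to 0.57) and Oasl1 (-0.99 to 0.15). The same held for Oasl2 (-0.74 to 0.12), Rsad2 (-1.63 to 0.00016), Parp14 (-0.54 to 0.011), Ifi35 (-0.061 to 0.055), Irgm1 (-0.27 to 0.0099), H2-D1 (-0.56 to 0.088), Ifnar1 (-0.011 to 0.028), Nlrc5 (-0.81 to 0.071), Psmb5 (-0.035 to 0.085) and Psmb6 (-0.064 to 0.16).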
